A study of Mus musculus with 12 samples.

Results

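The genes described here carry arginine into the cell and turn it into nitric oxide, back into arginine or towards polyamines. They are the 7 rows of the count table named Slc7a1, Slc7a2, Nos2, Ass1, Asl, Arg2 and Odc1, of 48709 rows in all, and were chosen by gene name. All 7 were present, and 6 of them were among the 13702 genes that passed the filter on low counts. Arg2 did not pass and is described from its counts.

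RNA was sequenced from embryonic fibroblasts of wild type C57BL/6 mice, taken at embryonic day 12.5 to 13.5, with 3 libraries in each of 4 groups. The cells called siIMP2_IL17 received an siRNA against IMP2 and, after 24 h, 200 ng/mL of the cytokine IL-17 for 8 h. The cells called siIMP2 received the IMP2 siRNA and no IL-17, siControl_IL17 cells received a control siRNA and IL-17, and siControl cells received the control siRNA alone. Within every group 2 library titles start with NA and 1 with RB160, and the labels do not say what this title set stands for or whether libraries came from separate cultures. The p-values therefore judge differences only against how far these libraries vary, and that variation may be technical.

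Arginine enters fibroblasts mainly through the cationic amino acid transporters CAT1, made from Slc7a1, and CAT2, made from Slc7a2. Inducible nitric oxide synthase (Nos2) turns arginine into nitric oxide and citrulline, and argininosuccinate synthase (Ass1) and argininosuccinate lyase (Asl) rebuild arginine from citrulline. Mitochondrial arginase (Arg2) splits arginine into ornithine and urea instead, and ornithine decarboxylase (Odc1) makes the polyamine putrescine from ornithine. The siRNA target IMP2 (gene Igf2bp2) binds messenger RNA and recognises N6-methyladenosine, a base change placed within short motifs that include GGACU.

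The libraries held 33841054 to 44433699 counted exon reads, so that 1 CPM, a count scaled to library size, stood for 31.9 to 50.9 reads. Igf2bp2 stood at 23.6 ± 4.90 CPM in siIMP2_IL17 cells, 21.9 ± 3.01 CPM in siIMP2 cells, 154 ± 13.5 CPM in siControl_IL17 cells and 149 ± 17.1 CPM in siControl cells (SD, n = 3 each). Fibroblast markers, 14 genes, summed to 10379 to 16033 TPM, a level scaled by library size and gene length, over the 12 libraries. Single fibroblast markers moved with the siRNA. By the edgeR test described below, the siRNA lowered 9 and raised 2 of the 14 both with and without IL-17. Of all genes tested it lowered 16.7% with and 16.7% without IL-17, and raised 16.7% with and 16.1% without it. The median log2 fold change of the 14 markers was -0.44 with IL-17 and -0.50 without it. Their part in the siRNA results below was not tested. Macrophages are a known source of Nos2, and of their 14 markers in the table Adgre1, Fcgr1, Tyrobp, C1qb and C1qc were at 0 in all 12 libraries. The other macrophage markers were mostly Cd14 and Cd68, and the list summed to 14.9 to 23.8 TPM in siIMP2_IL17 cells, 14.0 to 18.5 TPM in siIMP2 cells, 26.8 to 28.5 TPM in siControl_IL17 cells and 17.7 to 25.8 TPM in siControl cells. Endothelial markers reached at most 8.11 TPM and skeletal muscle markers 0.183 TPM. The 8 epithelial markers summed to 88.8 to 231 TPM in siIMP2_IL17 cells, 120 to 289 TPM in siIMP2 cells, 68.6 to 161 TPM in siControl_IL17 cells and 72.6 to 181 TPM in siControl cells, and their part in the results below was not tested.

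Levels per gene length spanned a wide range, as the plot of TPM by group shows. Odc1, at 248 to 437 TPM, and Ass1, at 179 to 296 TPM, were the most abundant of these genes in every group mean. Slc7a1 followed at 32.4 to 61.8 TPM and Slc7a2 at 6.29 to 53.5 TPM, whose ranges overlap. Asl stood at 7.59 to 11.3 TPM, Nos2 at 0 to 2.82 TPM and Arg2 at 0.0528 to 0.651 TPM.

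**Figure D1:**
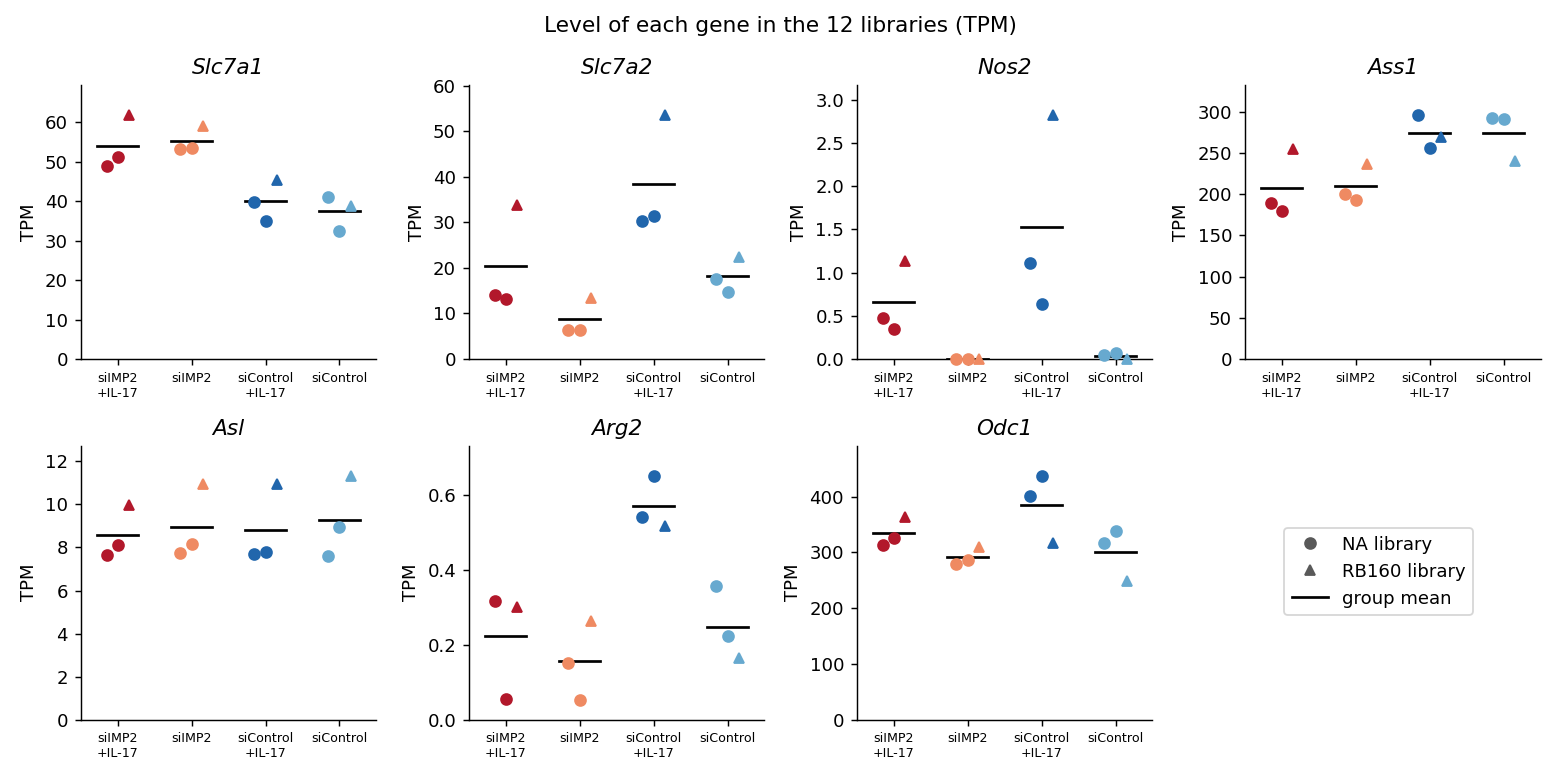
Level of each gene in TPM (linear axes from 0) in the 12 libraries, by group, with circles for NA libraries, triangles for RB160 libraries and a bar for the mean of 3. By group mean, Slc7a1 is higher and Slc7a2 lower in both siIMP2 groups than in the matching siControl group, and Nos2 is near 0 in both groups without IL-17.

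Each comparison was tested with edgeR's quasi-likelihood test over all genes, with the title set as a term, and called at an adjusted p below 0.05. IL-17 raised Nos2 and Slc7a2 in siIMP2 cells, 2 of 6 genes tested, where 0.511% of all genes tested were called and 0.343% were higher. In siControl cells IL-17 raised the same 2 genes, where 0.423% of all genes were called and 0.255% were higher. Nos2 passed the filter on low counts only through its IL-17 libraries. Its entry among the 6, and so the 2 of 6, thus depended on the groups where it is high. The median log2 fold change of the 6 genes under IL-17 was 0.08 in siIMP2 cells and 0.22 in siControl cells, against -0.01 over all genes in both. With IL-17 the IMP2 siRNA changed 4 of 6, with Slc7a1 higher and Slc7a2, Ass1 and Nos2 lower, where 33.4% of all genes were called, 16.7% higher and 16.7% lower. Without IL-17 it changed 2 of 6, with Slc7a1 higher and Slc7a2 lower, where 32.9% of all genes were called, 16.1% higher and 16.7% lower. The median of the 6 for the siRNA was -0.23 with IL-17, against -0.01 over all genes, and -0.15 without IL-17, against 0.00 over all genes. The test of the difference between the IL-17 responses, siIMP2 minus siControl, called 0 of 6 and 0 of all 13702 genes in edgeR, with 152 at an unadjusted p below 0.05, and 0 in DESeq2, with 71.

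Slc7a2, the inducible arginine transporter CAT2, rose with IL-17 and fell with the IMP2 siRNA. In bulk RNA such as this, fewer cells that express a gene and less of its RNA per cell cannot be told apart. Its levels were 14.0, 13.2 and 33.8 TPM in siIMP2_IL17 cells, 6.37, 6.29 and 13.5 TPM in siIMP2 cells, 30.3, 31.5 and 53.5 TPM in siControl_IL17 cells and 17.6, 14.7 and 22.4 TPM in siControl cells, with the RB160 library last in each. The RB160 library was the highest of each group, and within each title set every IL-17 library lay above its unstimulated counterpart. In log2 CPM the groups with and without IL-17 did not overlap in either siRNA group, which held for 2.48% of all genes, as higher, in siIMP2 cells and 2.68% in siControl cells. In TPM they overlapped in siIMP2 cells, at 13.2 in an NA library with IL-17 and 13.5 in the RB160 library without it. On the log2 scale IL-17 raised Slc7a2 by 1.18 ± 0.13 in siIMP2 cells (SE, edgeR adjusted p = 0.00173), by 1.30 in the RB160 pair and 1.10 among NA libraries. In siControl cells it rose by 1.03 ± 0.13 (edgeR adjusted p = 0.00614), by 1.20 in the RB160 pair and 0.96 among NA libraries. The IL-17 response of siIMP2 cells minus that of siControl cells was 0.15 on the log2 scale, with a 95% interval of -0.25 to 0.55.

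The IMP2 siRNA lowered Slc7a2 both with and without IL-17. With IL-17 the log2 fold change was -0.92 ± 0.13 (edgeR adjusted p = 0.000161), and without IL-17 it was -1.07 ± 0.13 (edgeR adjusted p = 6.98e-05). In log2 CPM no siIMP2 library reached an siControl library with the same stimulus, which held for 9.58% of all genes, as lower, with IL-17 and 9.25% without it. In TPM the groups with IL-17 overlapped, since the RB160 siIMP2_IL17 library, at 33.8, lay above the NA siControl_IL17 libraries, at 30.3 and 31.5. The difference was -0.58 in the RB160 pair and -1.11 among NA libraries with IL-17, and -0.69 in the RB160 pair and -1.26 among NA libraries without it. The level of siIMP2_IL17 cells, 20.3 ± 11.7 TPM, overlapped that of unstimulated siControl cells, 18.2 ± 3.89 TPM (SD, n = 3 each), and these 2 groups differ in both siRNA and stimulus. When the title set was left out of the model, none of the 4 Slc7a2 differences passed, with adjusted p from 0.109 to 1.00. Leaving out any of the 12 libraries ended none of the 4 calls.

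Slc7a2 lies at chr8:40862396-40922308 on the plus strand of mm10, and its long 3' UTR holds 3 copies of GGACT, the DNA form of the motif named above. They are shown with 12 bases on either side, since an RNA reader is the target of the siRNA, with the motif in capitals and each 5′ to 3′ on the plus strand.
Slc7a2 3' UTR base 2136, chr8:40918658-40918686: gcagcactaattGGACTcaacaagttaca
Slc7a2 3' UTR base 4790, chr8:40921312-40921340: gccacaatttctGGACTctaagcagcctg
Slc7a2 3' UTR base 5422, chr8:40921944-40921972: acatgcaaagttGGACTctttttcttttt
Of 619 genes with a 3' UTR of similar length (within 20%), 98.1% hold GGACT on the transcript's strand, with a median of 5 copies. The match is a description of the sequence and not a measured methylation or binding site. A noncoding gene on the other strand, Gm26584, overlaps Slc7a2 and had 0 to 10 counts a library, and whether counting used strand is not stated in these sources.

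Slc7a1, which encodes the constitutive transporter CAT1, changed in the opposite direction from Slc7a2 with the IMP2 siRNA and was not called under IL-17. It stood at 48.9, 51.3 and 61.8 TPM in siIMP2_IL17 cells, 53.3, 53.6 and 59.1 TPM in siIMP2 cells, 39.9, 34.9 and 45.5 TPM in siControl_IL17 cells and 41.1, 32.4 and 38.9 TPM in siControl cells. Every siIMP2 library lay above every siControl library with the same stimulus. In log2 CPM the same separation held for 9.24% of all genes, counted as higher, with IL-17 and for 9.47% without IL-17. The siRNA raised Slc7a1 by 0.50 ± 0.08 on the log2 scale with IL-17 (edgeR adjusted p = 0.000506) and by 0.63 ± 0.08 without IL-17 (edgeR adjusted p = 9.08e-05).

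The title sets gave nearly the same siRNA effect for Slc7a1, 0.52 in the RB160 pair and 0.49 among NA libraries with IL-17, and 0.64 in the RB160 pair and 0.64 among NA libraries without it. The call held with IL-17 and without it under each of the 11 alternative settings, with adjusted p of at most 0.0472. Under IL-17 its log2 fold change was -0.05, with a 95% interval of -0.23 to 0.12, in siIMP2 cells and 0.08, with an interval of -0.09 to 0.26, in siControl cells. Slc7a1 lies at chr5:148327410-148399904 on the minus strand, and its 3' UTR holds 1 GGACT, shown here on the transcript's strand for comparison with the copies in Slc7a2.
Slc7a1 3' UTR base 666, chr5:148331758-148331786: ctcagcccgcgtGGACTagggtgacattc
Its coding sequence holds 3 more, and 98.4% of 870 genes with a 3' UTR of similar length hold the motif there, with a median of 4 copies.

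Because IL-17 and the siRNA moved the transporters differently, the share of the pair's TPM that belonged to Slc7a2 varied between groups. That share was 22.2%, 20.5% and 35.4% in siIMP2_IL17 cells, 10.7%, 10.5% and 18.6% in siIMP2 cells, 43.2%, 47.4% and 54.0% in siControl_IL17 cells and 30.0%, 31.2% and 36.5% in siControl cells. The mean was 26.0 ± 8.15% in siIMP2_IL17 cells, 13.3 ± 4.62% in siIMP2 cells, 48.2 ± 5.47% in siControl_IL17 cells and 32.6 ± 3.47% in siControl cells (SD, n = 3 each). IL-17 cells minus unstimulated cells gave 14.9 percentage points, and siIMP2 cells minus siControl cells gave -20.1 percentage points. The share was formed after both transporters had been seen to change, so it is given as a description with no test. Every IL-17 library exceeded its unstimulated counterparts of the same siRNA and title set, and every siControl library exceeded its siIMP2 counterparts.

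**Figure D2:**
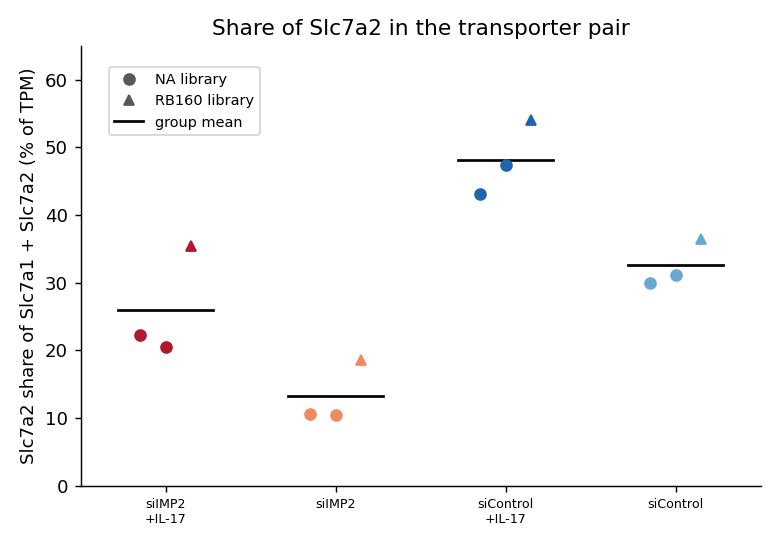
Slc7a2 as a percent of the summed TPM of Slc7a1 and Slc7a2 (linear axis from 0) in each library, with circles for NA libraries, triangles for RB160 libraries and a bar for the mean of 3. The lowest share, 10.5%, is in an siIMP2 library and the highest, 54.0%, in an siControl_IL17 library.

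Nos2, inducible nitric oxide synthase, was almost silent without IL-17 and was induced in both siRNA groups, at a low level. The files counted 28, 19 and 70 Nos2 reads in siIMP2_IL17 libraries, 0, 0 and 0 in siIMP2 libraries, 70, 36 and 185 in siControl_IL17 libraries and 3, 4 and 0 in siControl libraries. Every IL-17 library had more reads than every unstimulated library of the same siRNA, and the RB160 library was the highest of each IL-17 group. In siIMP2 cells the summed counts were 117 with IL-17 and 0 without, which is at least 39.3-fold higher with IL-17 when the 0 is set to 3 counts over the group (edgeR adjusted p = 0.0100). In siControl cells the sums, 291 with IL-17 and 7 without, gave a 38.0-fold higher level with IL-17, and the fitted log2 fold change was 5.01 ± 0.59 (edgeR adjusted p = 0.00742). The size of this rise is uncertain, since the fitted value was 3.87 without siControl replicate 3, 5.87 without siControl replicate 2 and 3.82 among NA libraries alone. The calls were lost without the title-set term (adjusted p = 0.451 in siIMP2 cells and 1.00 in siControl cells), and also without siIMP2 replicate 3 in siIMP2 cells (adjusted p = 0.0765) and without siControl_IL17 replicate 3 in siControl cells (adjusted p = 0.0570).

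With IL-17, Nos2 was 2.23-fold lower by summed counts in siIMP2_IL17 cells than in siControl_IL17 cells. The log2 fold change was -1.10 ± 0.38 (edgeR adjusted p = 0.0446), at -1.21 in the RB160 pair and -0.92 among NA libraries, while the libraries of the groups overlapped. This call was lost in DESeq2 (adjusted p = 0.0845), limma-voom (0.0571), the NA libraries alone (0.0534), reads with introns (0.0593) and the model without the title set (0.523), and on leaving out siControl replicate 1, siControl_IL17 replicate 1, siControl_IL17 replicate 3, siIMP2 replicate 1 or any of the siIMP2_IL17 libraries, with log2 fold changes of -1.32 to -0.83 over all libraries left out in turn. The macrophage list was lower in siIMP2_IL17 cells too, as given above, and its part in the Nos2 difference was not tested. Without IL-17 the counts were 0 in siIMP2 cells and 7 in siControl cells (edgeR adjusted p = 0.104), and the difference passed without siControl replicate 3 (adjusted p = 0.0108), in DESeq2 (0.0246), with no filter beyond 1 count (0.0473) and among NA libraries alone (0.0498). Because of the counts of 0, the difference between the IL-17 responses of siIMP2 and siControl cells has no usable size for Nos2.

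Nos2 lies at chr11:78920787-78960254 on the plus strand, and none of its 50-base windows is shared with another gene. Its short 3' UTR holds 1 GGACT, in 12 bases of sequence on either side.
Nos2 3' UTR base 138, chr11:78959878-78959906: ttgtactattgtGGACTactaaatctctc
Of 2075 genes with a 3' UTR of similar length 43.3% hold the motif. The AU-rich nonamer TTATTTATT, associated with short-lived cytokine messages, is in the 3' UTR of none of the 7 genes and of 7.18% of all 21037 genes with one. The shorter ATTTA, which can lie inside the nonamer, is found 12 times in the Slc7a2 3' UTR, 6 times in that of Slc7a1 and 3 times in that of Nos2, against medians of 10, 9 and 1 copies in 3' UTRs of similar length. GGACT is absent from the 3' UTRs of Ass1, Asl, Arg2 and Odc1, which are all shorter than that of Nos2.

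Ass1 and Asl rebuild arginine from the citrulline that Nos2 releases, and neither was called under IL-17. Ass1 stood at 189, 179 and 255 TPM in siIMP2_IL17 cells, 200, 193 and 237 TPM in siIMP2 cells, 296, 256 and 270 TPM in siControl_IL17 cells and 292, 291 and 240 TPM in siControl cells. The NA libraries of the siRNA groups differed, and the RB160 libraries lay close together. The log2 fold change with IL-17 was -0.34 ± 0.12 (edgeR adjusted p = 0.0421), at -0.01 in the RB160 pair and -0.51 among NA libraries. Without IL-17 it was -0.32 ± 0.12 (edgeR adjusted p = 0.0517), at 0.02 in the RB160 pair and -0.48 among NA libraries. The call with IL-17 was lost with uniquely mapped reads (adjusted p = 0.0598), without the title-set term (0.347) and on leaving out siIMP2_IL17 replicate 1 or 2, siIMP2 replicate 1, or siControl_IL17 replicate 1 or 2, with log2 fold changes of -0.36 to -0.24 in those fits. Without IL-17 the difference passed on leaving out siControl replicate 3, siControl_IL17 replicate 1 or 3, or siIMP2_IL17 replicate 2 or 3, with log2 fold changes of -0.47 to -0.31 in those fits. It also passed in DESeq2 (adjusted p = 0.0250), with no filter beyond 1 count (0.0126), at 1 CPM in 3 libraries (0.0499), among NA libraries alone (0.000957), in the groups compared alone (0.0374) and with uniquely mapped reads (0.0472).

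Reads of Ass1 are hard to assign. The files mark 55.8% of its gene reads as uniquely mapped, where the median gene tested had 99.9%, and Gm5424 on chromosome 10, annotated as a processed pseudogene in GENCODE, holds 55.3% of the 50-base windows of the Ass1 transcript. Over 1240 aligned bases the 2 sequences are 99.5% identical with 6 differences. The stretch below, coding bases 380 to 439 of Ass1 with the aligned bases of Gm5424, is shown because it holds a pair of these differences, in capitals, and a read that covers neither matches both genes.
Ass1: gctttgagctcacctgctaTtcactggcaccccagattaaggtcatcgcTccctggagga
Gm5424: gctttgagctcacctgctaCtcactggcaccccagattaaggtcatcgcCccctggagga
Gm5424 itself was given 3 to 24 counts a library, against 5363 to 10147 for Ass1.

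Asl was not called in any comparison of the main edgeR fit. It stood at 7.65 to 9.99 TPM in siIMP2_IL17 cells, 7.75 to 10.9 TPM in siIMP2 cells, 7.69 to 10.9 TPM in siControl_IL17 cells and 7.59 to 11.3 TPM in siControl cells, and the groups overlapped throughout. The log2 fold changes were -0.07 for IL-17 in siIMP2 cells, -0.09 for IL-17 in siControl cells, 0.04 for the siRNA with IL-17 and 0.02 for the siRNA without it. The 95% intervals of these 4 values lay between -0.25 and 0.21.

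Arg2, mitochondrial arginase, was near the detection limit. It had 6, 1 and 6 counts in siIMP2_IL17 libraries, 3, 1 and 5 in siIMP2 libraries, 11, 12 and 11 in siControl_IL17 libraries and 7, 4 and 3 in siControl libraries. The siControl_IL17 libraries were the highest 3 of the 12. A 2-sided exact permutation test within siRNA and title set gave p = 0.0833 for IL-17 and, within stimulus and title set, p = 0.0972 for the siRNA, where 0.0139 is the smallest p the design allows (n = 12 libraries). In edgeR with no filter the adjusted p was 0.170 to 1.00 over the 4 comparisons. Between 74.5% and 96.6% of the reads within the Arg2 gene lay outside its exons, and the gene overlaps Vti1b on the other strand, which had 2255 to 2942 counts.

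Odc1, which makes putrescine and is the rate-limiting enzyme of polyamine synthesis, was not called in any of the 4 comparisons. It stood at 314, 326 and 364 TPM in siIMP2_IL17 cells, 280, 287 and 310 TPM in siIMP2 cells, 401, 437 and 317 TPM in siControl_IL17 cells and 316, 338 and 248 TPM in siControl cells. Within each siRNA and title set the IL-17 libraries lay above the unstimulated ones. The log2 fold change under IL-17 was 0.18 ± 0.11 in siIMP2 cells (edgeR adjusted p = 0.831) and 0.35 ± 0.11 in siControl cells (edgeR adjusted p = 0.257). It was called in siControl cells among NA libraries alone, where the log2 fold change was 0.37 (edgeR adjusted p = 0.0470). With no filter beyond 1 count it was also called there, at 0.35 (edgeR adjusted p = 0.0475). In fits of the groups compared alone it was called in siIMP2 cells (edgeR adjusted p = 0.0383) and siControl cells (edgeR adjusted p = 0.0346).

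The siRNA effect on Odc1 had opposite signs in the title sets. With IL-17 it was 0.27 in the RB160 pair and -0.32 among NA libraries, and without IL-17 it was 0.36 in the RB160 pair and -0.12 among NA libraries. Over all libraries it was -0.12 ± 0.11 with IL-17 and 0.04 ± 0.11 without (edgeR adjusted p = 0.427 and 0.816), and among NA libraries alone the fall with IL-17 passed the test, at -0.33 (edgeR adjusted p = 0.00296). Odc1 shares 42.2% of its 50-base windows with other genes, mostly processed pseudogenes with 0 to 3 counts a library, and 92.8% of its gene reads were unique. AW146154, which the files list as protein coding, shares 11.2% of the windows and had 132 to 299 counts against 8106 to 14532 for Odc1.

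Of the 6 genes tested 4 also differed between the title sets, where 69.5% of all genes were called, 34.9% higher in RB160 libraries and 34.6% lower. RB160 libraries were higher for Slc7a2, by 0.58 ± 0.10 on the log2 scale (edgeR adjusted p = 0.000120), and for Nos2, by 1.02 ± 0.36 (edgeR adjusted p = 0.0251). For Nos2 this held only with IL-17. Without it, the siControl counts were 0 in the RB160 library and 3 and 4 in NA libraries. All siIMP2 libraries had 0. RB160 libraries were lower for Odc1, by -0.45 ± 0.09 (edgeR adjusted p = 0.000388), and for Ass1, by -0.23 ± 0.09 (edgeR adjusted p = 0.0354). In TPM, as given above, the RB160 library was instead the highest for Odc1 and Ass1 in siIMP2_IL17 and in siIMP2 cells. In CPM too, Ass1 was highest in the RB160 library of siIMP2_IL17 cells, at 190 against 184 and 168. The Nos2 call was lost in DESeq2 (0.72, adjusted p = 0.182) and without replicate 2 or 3 of either IL-17 group, at 0.68 to 0.98. The Ass1 call was lost with upper-quartile scaling (-0.19, edgeR adjusted p = 0.0695). It was also lost without replicate 1 of siIMP2 cells or replicate 1 or 3 of siControl_IL17 cells or any of the siControl libraries, at -0.22 to -0.12. Slc7a1, at -0.14, was not called but passed without replicate 2 of siControl_IL17 or siControl cells, at -0.16 in each. It also passed with uniquely mapped reads (-0.152, edgeR adjusted p = 0.0359) and with introns included (-0.145, edgeR adjusted p = 0.0495). Asl passed with upper-quartile scaling (0.134, edgeR adjusted p = 0.0450). With 1 RB160 library a group, an siRNA effect within RB160 has no replicate check.

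**Figure D3:**
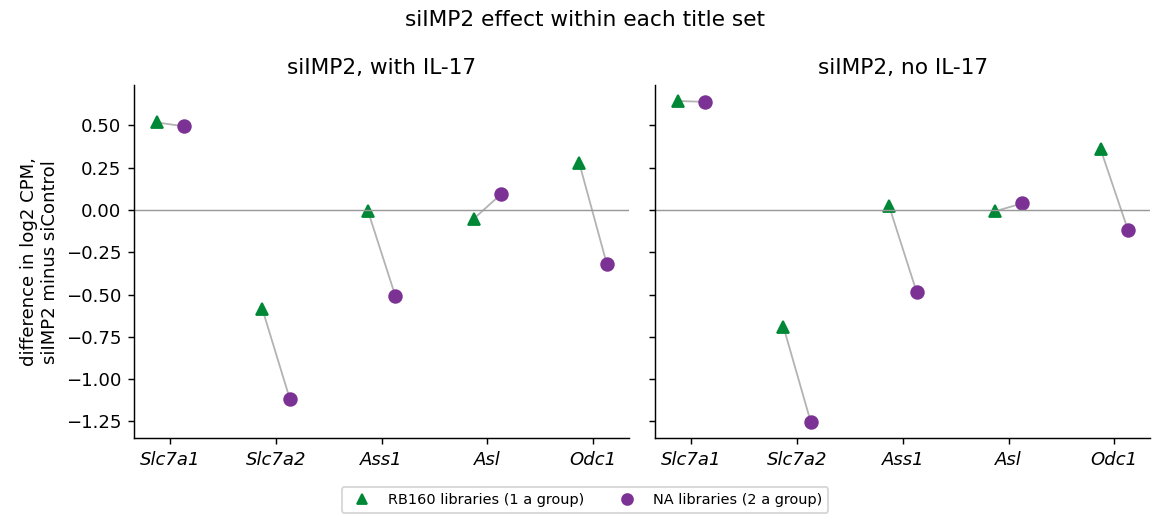
Difference in log2 CPM between siIMP2 and siControl libraries, with IL-17 on the left and without it on the right, for RB160 libraries (triangles, 1 a group) and NA libraries (circles, 2 a group). Slc7a1 shows nearly the same difference in both title sets, Slc7a2 a smaller fall in RB160, Ass1 a fall among NA libraries with none in RB160, and Odc1 opposite signs.

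The files also give all reads within a gene, so reads outside annotated exons, 4.49% to 6.42% of gene reads per library, could be fitted as a second readout. Such reads can come from introns or from overlapping genes, and their origin was not tested. Slc7a2 had 36 to 884 of them a library and changed the same way as in exons, where 0.112% of 12463 genes were called under IL-17 in siIMP2 cells, 0.225% in siControl cells, 10.7% for the siRNA with IL-17 and 10.8% without it. For IL-17 its log2 fold changes outside exons were 1.23 in siIMP2 cells and 0.97 in siControl cells (edgeR adjusted p = 0.00173 and 0.00345). For the siRNA they were -1.30 with IL-17 and -1.56 without it (edgeR adjusted p = 2.04e-06 and 1.97e-06), beside -0.92 and -1.07 in exons.

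Slc7a1 outside exons, at 71 to 239 reads a library, was higher with the siRNA by 0.52 with IL-17 and 0.73 without it (edgeR adjusted p = 0.0124 and 0.000792). Ass1, which was lower in exons, had log2 fold changes outside exons of -0.14 with IL-17 and -0.02 without it, with 95% intervals of -0.48 to 0.21 and -0.37 to 0.33, at 91 to 264 reads a library. Odc1 and Asl were not called outside exons for IL-17 or the siRNA. Between the title sets, where 49.7% of genes were called outside exons, Odc1 was higher in RB160 libraries by 0.40 ± 0.12 outside exons (edgeR adjusted p = 0.00861), against -0.45 in exons. Nos2 had at most 18 reads outside exons and was not tested there.

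**Figure D4:**
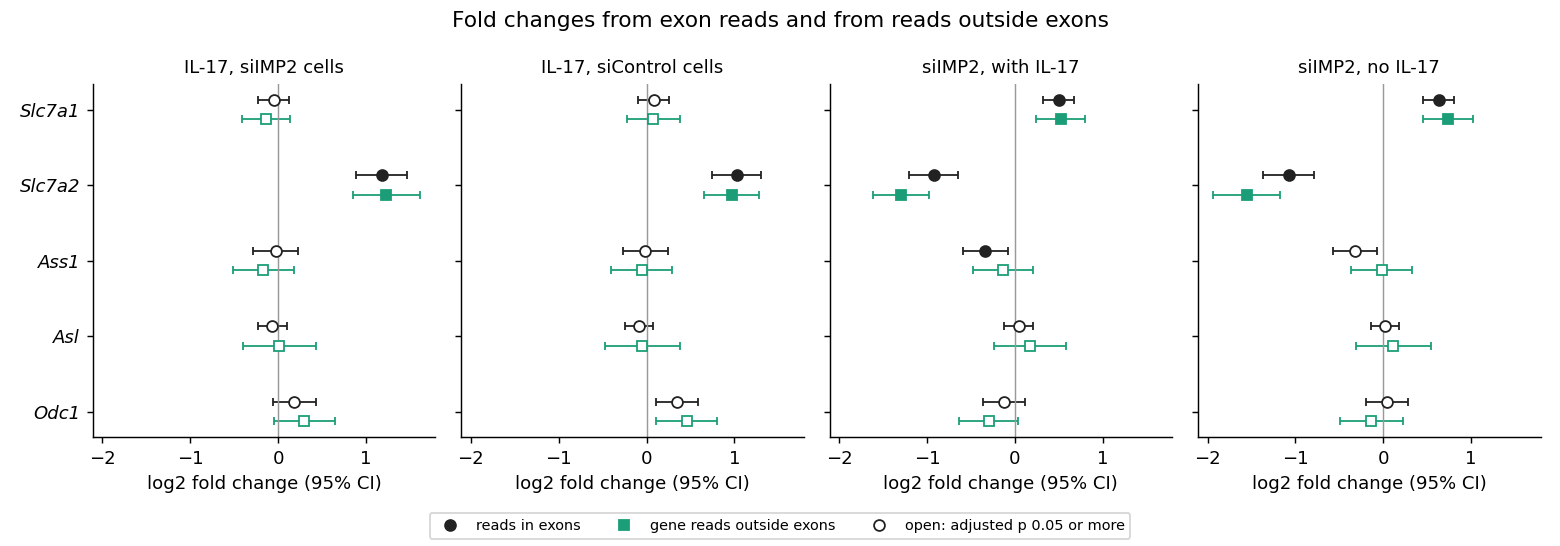
Log2 fold change with its 95% interval from reads in exons (circles) and gene reads outside exons (squares) for 5 genes in 4 comparisons, filled where the adjusted p is below 0.05. Slc7a2 and Slc7a1 move in the same direction in both readouts, and Ass1 with the siRNA lies nearer to 0 outside exons.

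Other genes of the same pathways were read from 7 lists, which hold 98 genes beside the 7 above, of which 69 were tested. None of the 69 was called by edgeR under IL-17, where 0.511% of all genes were called in siIMP2 cells and 0.423% in siControl cells. An unadjusted p below 0.05 was seen for 1038 of all 13702 genes in siIMP2 cells and 1503 in siControl cells. Of the 69, 7 had one in siIMP2 cells and 5 in siControl cells. The siRNA with IL-17 raised 10 and lowered 8 of them, 26.1% of the 69, against 33.4% of all genes, and without IL-17 also raised 10 and lowered 8, 26.1%, against 32.9% of all genes. Their median log2 fold change was 0.01 with IL-17 and -0.01 without it.

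Among transporters of cationic amino acids, the IMP2 siRNA also raised Slc7a3, the third cationic transporter CAT3, by 0.78 ± 0.20 with and 1.20 ± 0.20 without IL-17 on the log2 scale (edgeR adjusted p = 0.00864 and 0.000695). Slc7a3 was low, at 2.03 ± 1.12 TPM in siIMP2_IL17 cells, 2.02 ± 0.89 TPM in siIMP2 cells, 1.23 ± 0.64 TPM in siControl_IL17 cells and 0.900 ± 0.27 TPM in siControl cells (SD, n = 3 each). Slc3a2, the heavy chain of several amino acid exchangers, rose by 0.34 with and 0.38 without IL-17. Slc38a9, a lysosomal arginine sensor, rose by 0.41 and Slc7a4 fell by 1.40 without IL-17 on the log2 scale, and with IL-17 they were not called. The Slc38a9 change without IL-17 was 0.10 in the RB160 pair and 0.56 among NA libraries. Slc7a4 was low there, at 2 to 8 counts in siIMP2 and 8 to 29 in siControl libraries (SE 0.48, edgeR adjusted p = 0.0392). Around nitric oxide synthesis, Gch1, which makes the first step towards the synthase cofactor tetrahydrobiopterin, fell by 0.76 with IL-17 and by 1.00 without it (edgeR adjusted p = 0.0172 and 0.00636). The Gch1 change was -0.70 in the RB160 pair and -0.76 among NA libraries with IL-17. Without IL-17 it was -0.38 in the RB160 pair and -1.17 among NA libraries, and the groups overlapped in log2 CPM. Gch1 stood at 1.19 ± 0.05 TPM in siIMP2_IL17 cells, 0.731 ± 0.07 TPM in siIMP2 cells, 2.13 ± 0.03 TPM in siControl_IL17 cells and 1.56 ± 0.58 TPM in siControl cells (SD, n = 3 each). Ddah1, which degrades methylarginine inhibitors of the synthases, rose by 0.33 with and 0.30 without IL-17, Nosip rose by 0.21 with IL-17, and Prmt1 fell by 0.22 without it. The Prmt1 change without IL-17 was -0.07 in the RB160 pair and -0.30 among NA libraries. With IL-17 Ddah1 and Nosip instead rose more in the RB160 pair, by 0.59 and 0.35, than among NA libraries, by 0.21 and 0.15.

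Downstream of nitric oxide, among phosphodiesterases and kinases of cyclic GMP, Pde1b rose by 1.25 and 1.09, Pde1a fell by 0.99 and 0.84 and Prkg2 fell by 0.82 and 0.64 with and without IL-17 on the log2 scale, and Pde5a rose by 0.60 with IL-17. The Prkg2 change was -0.11 in the RB160 pair and -1.24 among NA libraries with IL-17, and -0.14 and -0.91 without it. That of Pde5a with IL-17 was -0.13 in the RB160 pair and 0.99 among NA libraries. Of the nitric oxide receptor genes in the list, Gucy1b3 had 0 to 6 counts a library and Gucy1a3 0 to 1. Gucy1a2 stood at 1.17 to 2.87 TPM over the 12 libraries. In the ornithine and proline list, Pycr1, which makes proline, rose by 0.61 ± 0.08 with and 0.70 ± 0.08 without IL-17 (edgeR adjusted p = 0.000106 and 3.69e-05). Glul, glutamine synthetase, fell by 0.64 ± 0.06 with and 0.62 ± 0.06 without IL-17 (edgeR adjusted p = 5.56e-06 and 7.09e-06). Oat, which makes ornithine into a proline precursor, fell by 0.22 with and 0.28 without IL-17, Pycrl rose by 0.26 with IL-17 and Aldh18a1 rose by 0.31 without it. In the arginine and citrulline list Gamt, which makes creatine, fell by 0.50 with and 0.57 without IL-17, and Slc25a13 rose by 0.29 without IL-17. Of the polyamine lists, Atp13a3, a polyamine transporter, rose by 0.42 with and 0.46 without IL-17. Smox, a spermine oxidase, rose by 0.25 and Slc18b1 fell by 0.30 with IL-17, and Azin1, the antizyme inhibitor, rose by 0.26 without it.

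As a description of likeness, log2 CPM centred within title set was correlated over the 12 libraries with every gene of established symbol and a mean of at least 1 on the log2 scale, 10496 genes or 10497 for Nos2. The 12 libraries form 4 groups and share the fit's scaling, so each r reflects mainly the groups. The genes most like Slc7a2 were Cxcl1, Cebpd and Ccl2, with Pearson's r of 0.992, 0.989 and 0.988, which encode a neutrophil chemokine, a C/EBP transcription factor and a monocyte chemokine. The genes most like Nos2 were Psma5, Nfkbiz and Slc11a2, with r of 0.978, 0.974 and 0.974. For Slc7a1 they were Sgms1, Esyt2 and Pdlim5, with r of 0.989, 0.986 and 0.986.

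For Ass1 they were Gramd4, Exosc1 and Tnfaip1, with r of 0.978, 0.974 and 0.965. The values were lower for Asl, with Mad1l1, Evl and Ndufb7 at 0.953, 0.949 and 0.947, and for Odc1, with Prdx6 at 0.938 and Cct2 at 0.932. In the authors' deposited table, made with a model that the sources do not name, the false discovery rate for Slc7a2 was 0.123 for the siRNA with IL-17, 0.0230 without IL-17, 0.0185 for IL-17 in siIMP2 cells and 0.171 in siControl cells. For Slc7a1 and the siRNA the authors' deposited table gave 0.581 with IL-17 and 0.121 without it, neither below 0.05. In the authors' deposited table Nos2 had a false discovery rate of 2.21e-05 for IL-17 in siControl cells and 1.00 in the other comparisons.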

How the data were processed

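The authors deposited whole-number counts of reads per gene, TPM and RPKM, with log2 fold changes and p-values of their own comparisons. Per the file headers, reads were paired and trimmed; the submitters' processing notes name mm10 as the build. No aligner, counter or strand setting is stated in these sources. Counts in exons were tested with edgeR 4.0.16, with TMM scaling and filterByExpr at 10 reads, 15 in total. The model held group plus title set, with Benjamini-Hochberg over 13702 genes. The test was also run on simulated data with changes planted in the siControl_IL17 group only, which does not cover the siRNA comparisons. Its outcome is not given here. CPM use TMM-scaled library sizes. TPM are the deposited values; RPKM were not used. Reads outside exons are all gene reads minus exon reads, fitted in the same way. Transcript sequences and site positions come from a GENCODE annotation of the same build, in which 6 of the 7 genes have the files' coordinates. Named genes are the 7 members, up to 4 called genes per direction of each pathway list and 3 most alike genes per member. Of these, 2 genes are not reported here. The members and lists were chosen with earlier results of these data known.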

Additional observations from a re-analysis of the deposited data

Results flagged for a closer look

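The 6 genes tested were screened in the IL-17 and siRNA comparisons. For 5 differences both NA libraries of one group lay on one side of the other group's, and the RB160 pair differed the opposite way. They are differences in log2 CPM, and whether the title sets differ was not tested. The share of all genes with this pattern was not counted. With so few libraries it can arise by chance, so the 5 are given as a description. The siRNA effect on Odc1 with IL-17 was 0.27 in the RB160 pair and -0.32 among NA libraries. Without IL-17 it was 0.36 in the RB160 pair and -0.12 among NA libraries. The siRNA effect on Ass1 without IL-17 was 0.022 in the RB160 pair and -0.48 among NA libraries. That on Asl with IL-17 was -0.053 in the RB160 pair and 0.093 among NA libraries. The IL-17 effect on Slc7a1 in siIMP2 cells was 0.042 in the RB160 pair and -0.10 among NA libraries.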

How the results depend on the processing

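No paired analysis was possible because the labels give the groups no shared replicate numbers; the title set, which they do share, was already a term of the fit. Over 36 values of the 6 genes tested, 718 of 803 refits kept direction and call, 39 lost the call, 25 gained it and 21 changed sign. A value not called in the main fit counts as kept where it stayed uncalled with the same sign. The 718 therefore say little about the calls themselves. Without the title-set term the members called were 0 and 0 under IL-17 (siIMP2, siControl) and 1 for the siRNA with or without IL-17, and the genes called were 2 and 1 under IL-17 (siIMP2, siControl), 327 for the siRNA with IL-17 and 321 without it. Genes called under IL-17 in siIMP2 cells were 171 in DESeq2, 179 with no filter beyond 1 count, 349 in the groups compared alone and 46 among NA libraries alone, against 70; in siControl cells they were 193 in DESeq2, 221 with no filter and 100 in the groups compared alone, against 58. The causes were not tested. Leaving out each library in turn gave 1 to 2 members and 13 to 117 genes called under IL-17 in siIMP2 cells, and 1 to 2 members and 9 to 98 genes in siControl cells. For the siRNA it gave 2 to 4 members and 3357 to 4804 genes with IL-17, and 2 to 4 members and 3222 to 4690 genes without it. For the title set it gave 2 to 4 members and 8874 to 9602 genes, and for the difference of IL-17 responses 0. Odc1 under the siRNA without IL-17 was -0.13 among NA libraries alone and -0.064 to 0.11 with a library left out, and Asl there was -0.047 to 0.071. Ass1 under IL-17 was -0.19 to 0.065 in siIMP2 cells and -0.16 to 0.056 in siControl cells with a library left out. The difference of IL-17 responses was -0.18 to 0.12 for Ass1, 0.019 with uniquely mapped reads, -0.022 to 0.094 for Asl and -0.047 to 0.32 for Slc7a2. The alternatives with introns, or with reads outside exons alone, were chosen after seeing the data. Depth limits Arg2 and unstimulated Nos2 most.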
